A study of Mus musculus with 10 samples.

Results

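The 2 libraries of bone endothelial cells from mice given parathyroid hormone (PTH) were compared with the 2 libraries from untreated mice, all labelled as 12 weeks old. A cell entered the comparison if it had at least as many detected genes as the poorest cell of PTH replicate 1 and at most 6000, under 25% of its UMIs (unique molecular identifiers, each standing for 1 captured RNA molecule) on mitochondrial genes, at least 2 UMIs of the endothelial genes Cdh5, Pecam1, Egfl7 and Kdr together, and no UMI of the leukocyte gene Ptprc. These rules kept 15705 of the 21733 cells of the 4 libraries, which are part of a series of 47466 cells in 10 libraries. The kept cells numbered 4169 and 3934 in untreated replicates 1 and 2, and 2141 and 5461 in PTH replicates 1 and 2.

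All 4 libraries were made from sorted cells of the femur and tibia of female mice on a C57BL/6 background. The mice carried Cdh5-mTnG, a reporter that the endothelial Cdh5 promoter drives, and cells positive for both of its fluorescent proteins were sorted after depletion of blood lineages. PTH was injected daily into the peritoneum as its active N-terminal fragment, and the study's methods name PBS as the control injection of its drug treatments. The labels give the untreated adult libraries no treatment, so whether those mice received PBS is not stated in the sources used here. Per the study's methods the single-cell experiment was done 1 time per age and treatment group, with pooled animals. The 2 libraries of a group may thus be 2 draws from 1 pool. The p-values below therefore measure the spread between libraries, which may be technical, and not that between animals. Batches are not given per library, so a difference between the groups in preparation or sequencing cannot be told apart from PTH.

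PTH acts through Pth1r, a receptor of osteoblasts and osteocytes that signals through cAMP, and intermittent doses of the hormone raise bone formation. Bone vessels include sinusoids of the marrow, arteries, and the Emcn-high type H capillaries below the growth plate, which lie beside osteoprogenitors. Type R capillaries are a further capillary type that the study describes around remodelling bone.

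The 4 libraries held 10653583 to 28419323 UMIs, and the kept cells had medians of 3816 and 3708 UMIs in the untreated and of 4139 and 3873 UMIs in the PTH libraries. PTH replicate 1 stood apart, since none of its barcodes was poor in genes, while the fewest genes of a barcode was 2 to 4 in the other 3 libraries. The lowest number of genes in PTH replicate 1 was therefore applied as a floor to every library. Just above that floor lay 272, 263, 6 and 375 kept cells of untreated 1, untreated 2, PTH 1 and PTH 2. PTH replicate 1 thus still held few gene-poor cells. Of the barcodes, 45 were shared by the untreated pair, 29 by the PTH pair and 14 to 88 by pairs across the groups. The 8 pan-endothelial markers, 4 of which chose the cells, were detected in all 4 libraries and summed to 8411 to 9706 CPM (counts scaled to a fixed library total).

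Cells were put in 3 classes by a few genes each. Sinusoidal cells had at least 3 UMIs of Stab2, the hyaluronan scavenger receptor of sinusoids. Arterial cells had at least 4 UMIs of Gja4, Gja5, Fbln5 and Stmn2 together and at most 1 of Stab2, and the rest were other cells. The classes held 6899, 2712 and 6094 cells. A subset of 525 other cells with at least 3 UMIs of C1qtnf9, Aqp7, Fmo2, Timp4 and Car4 is called type R marker cells. Each of these genes was also detected in arterial cells, and arterial or sinusoidal cells that hold them are left out of the subset.

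With PTH the sinusoidal share was lower and the arterial and other shares were higher. Sinusoidal cells made up 54.9% (95% Clopper-Pearson interval 53.4 to 56.4) and 55.1% (53.5 to 56.6) of the untreated cells, and 33.9% (31.9 to 35.9) and 31.5% (30.2 to 32.7) of the PTH cells. Both PTH libraries lay below both untreated ones, and the means differed by -22.3 percentage points. Arterial cells made up 12.4% (11.4 to 13.5) and 11.4% (10.4 to 12.4) of the untreated cells and 20.8% (19.1 to 22.6) and 23.8% (22.7 to 24.98) of the PTH cells, a difference of 10.4 points. Other cells made up 32.7% and 33.5% against 45.4% and 44.7%, a difference of 11.9 points. An exact two-sided permutation test gave p = 0.333 for each, which is the smallest p that 2 libraries against 2 can give. Intervals cover counting error only, and shares of sorted cells depend on which vessels dissociate.

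Because a class is read from a few UMIs, each cell was also thinned to 2000 UMIs. Classes were drawn anew from the thinned UMIs, also for the tests of genes below. In untreated replicate 1 sinusoidal cells went from 2289 to 1449 and other cells from 1362 to 2269. For a class call lost on thinning, lower depth and changed classes cannot be told apart. The sinusoidal shares were then 35.0% and 34.9% against 20.5% and 19.7%, and the arterial shares 10.3% and 9.26% against 15.4% and 18.9%. The 2 groups again did not overlap. Thinning to 1500 UMIs left differences of -9.38 points for sinusoidal, 6.65 for arterial and 2.73 for other cells. Cells just inside the sinusoidal limit, with 3 Stab2 UMIs, numbered 334, 315, 104 and 246 in untreated 1, untreated 2, PTH 1 and PTH 2, and 351, 333, 123 and 342 cells lay just outside it with 2. The arterial limit had 39, 34, 44 and 108 cells with 4 UMIs and 50, 64, 59 and 144 with 3.

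**Figure D1:**
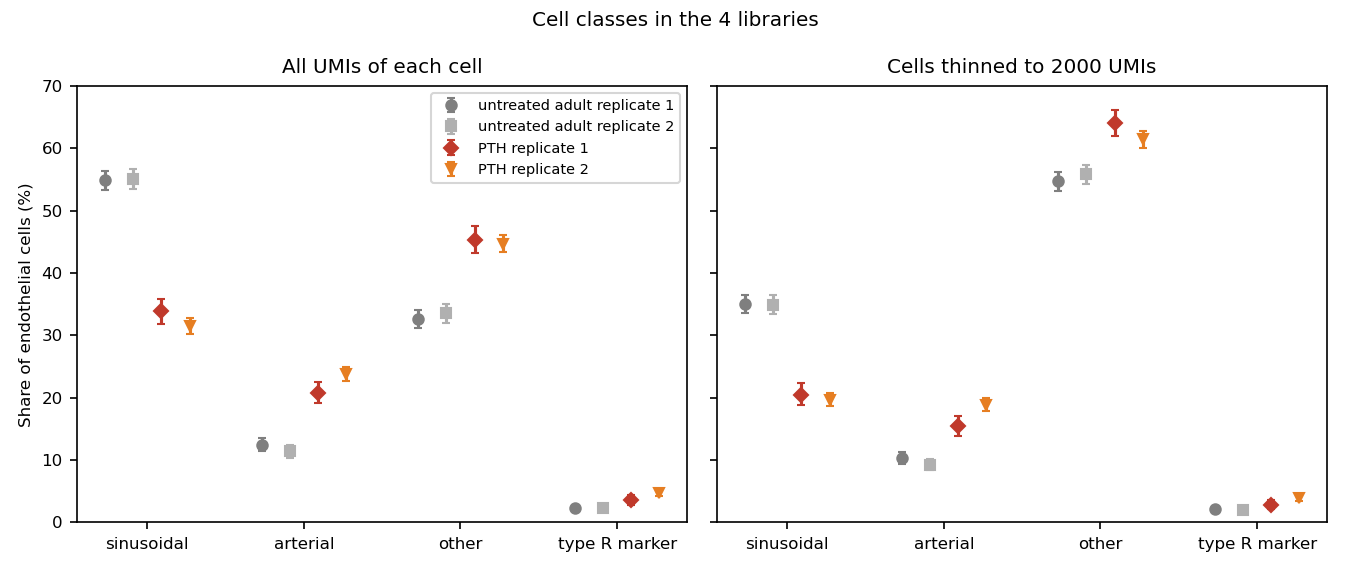
Share of endothelial cells (%, y axis) in each class (x axis), 1 point per library with its 95% Clopper-Pearson interval, for all UMIs (left) and for cells thinned to 2000 UMIs (right). In both panels the 2 PTH libraries lie below the 2 untreated libraries for sinusoidal cells and above them for arterial cells.

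Type R marker cells were few. They made up 2.35% (1.91 to 2.86) and 2.34% (1.89 to 2.86) of the untreated cells and 3.55% (2.81 to 4.42) and 4.74% (4.19 to 5.34) of the PTH cells, which is 98, 92, 76 and 259 cells. Both PTH libraries were higher, by 1.80 points in the mean (exact p = 0.333). The groups overlapped when all cells with 500 or more genes were counted, where the difference was 0.496 points. PTH replicate 1 had no cells to add there and stayed at 3.55%. The shares of untreated 1, untreated 2 and PTH 2 were then 4.05%, 4.03% and 5.52%, so that overlap cannot be read as a check. After thinning to 1500 UMIs the groups also overlapped, with a difference of 0.778 points.

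UMIs were then summed per library, over all cells and within each class, and tested by edgeR's quasi-likelihood method with Benjamini-Hochberg adjustment over all genes tested. In a sum over all cells, more cells of a type and more RNA per cell cannot be told apart. The same holds within a class that mixes vessel types, such as other cells, which met neither the sinusoidal nor the arterial rule. RNA leaked from lysed cells was not corrected for in any class. Over all cells 3721 of 14477 genes (25.7%) passed an adjusted p of 0.05, with 1906 higher (13.2%) and 1815 lower (12.5%) with PTH, and 397 of the higher and 304 of the lower changed by more than 2-fold. Of those calls 51.2% were higher, against 63.8% (2487 higher, 1414 lower) when libraries were scaled by plain totals, an alternative chosen after seeing the data. Within classes 913 of 12713 genes (7.18%) passed in sinusoidal, 694 of 10256 (6.77%) in arterial and 2065 of 12452 (16.6%) in other cells. Of 10121 genes tested in all 3 classes, 165 were higher and 130 lower in every class. Among genes tested in any class, 78 were higher in 1 class and lower in another. By their names 15 of the 165 were ribosomal pseudogenes (9.09%, against 0.642% of the genes tested) and 44 were numbered Gm gene models (26.7%, against 4.21%). Counts of pseudogenes are uncertain, since they can share reads with the genes they copy.

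Most type H markers passed as higher with PTH in each class. Over all cells 19 of 21 were higher (13.2% of all genes tested were) and none was lower, with a median log2 change of 0.86 against 0.00 over all genes. In sinusoidal cells 15 of 21 were higher (4.15% of all genes tested were), in arterial cells 13 of 21 (background 3.16%) and in other cells 18 of 21 (background 7.89%), with medians of 0.53, 0.46 and 0.63, and no member was lower. The count fell to 8 in sinusoidal cells thinned to 2000 UMIs and to 7 in arterial cells without untreated replicate 1, or 8 with DESeq2. The list was chosen with earlier results of these data known, so its direction is not independent evidence. Type H genes such as Ramp3, Piezo2 and Apln stood higher in other than in sinusoidal cells, and the other share was higher with PTH. The part of leaked RNA and mixed cells in type H levels of sinusoidal and arterial cells was not tested.

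The collagen gene Col18a1, whose product is the precursor of endostatin, was among the type H genes that were higher in every class. In sinusoidal cells Col18a1 stood at 26.5 and 22.4 CPM (untreated) and 75.2 and 71.4 CPM (PTH), a log2 change of 1.58 (SE 0.09, edgeR adjusted p = 1.98e-06). In arterial cells it stood at 415 and 436 against 635 and 673 CPM, a change of 0.62 (SE 0.07, edgeR adjusted p = 1.37e-05), and in other cells at 85.2 and 91.8 against 221 and 219 CPM, a change of 1.32 (SE 0.06, edgeR adjusted p = 7.68e-07). The PTH libraries were above the untreated ones in each class without overlap. Col18a1 was spread over many cells, with 796, 725, 975 and 2465 cells holding at least 1 UMI and the top 10 cells of a library holding 3.42% to 6.96% of its UMIs.

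Col15a1, another endostatin-family collagen, stood at 11.8 and 12.3 against 46.6 and 37.6 CPM in sinusoidal cells, a log2 change of 1.76 (SE 0.12). It was also higher in other cells (0.99) and in arterial cells (0.57), where the call was lost without untreated replicate 1. Ramp3, a partner of the calcitonin-receptor-like receptor, changed by 0.99, 0.53 and 0.74 in sinusoidal, arterial and other cells. The apelin receptor gene Aplnr changed by 0.57, 1.04 and 0.83, and Piezo2, a mechanosensitive channel, by 1.52, 1.33 and 1.16. The arterial call of Piezo2 was lost without PTH replicate 2, where its change was 1.02. On thinning to 2000 UMIs the sinusoidal call of Aplnr (0.21), the arterial call of Ramp3 (0.32) and the sinusoidal and arterial calls of Piezo2 (1.27 and 1.40) were lost. Emcn, the sialomucin that defines type H vessels, changed less, by 0.25, 0.30 and 0.41, and its arterial call was lost without either untreated library.

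**Figure D2:**
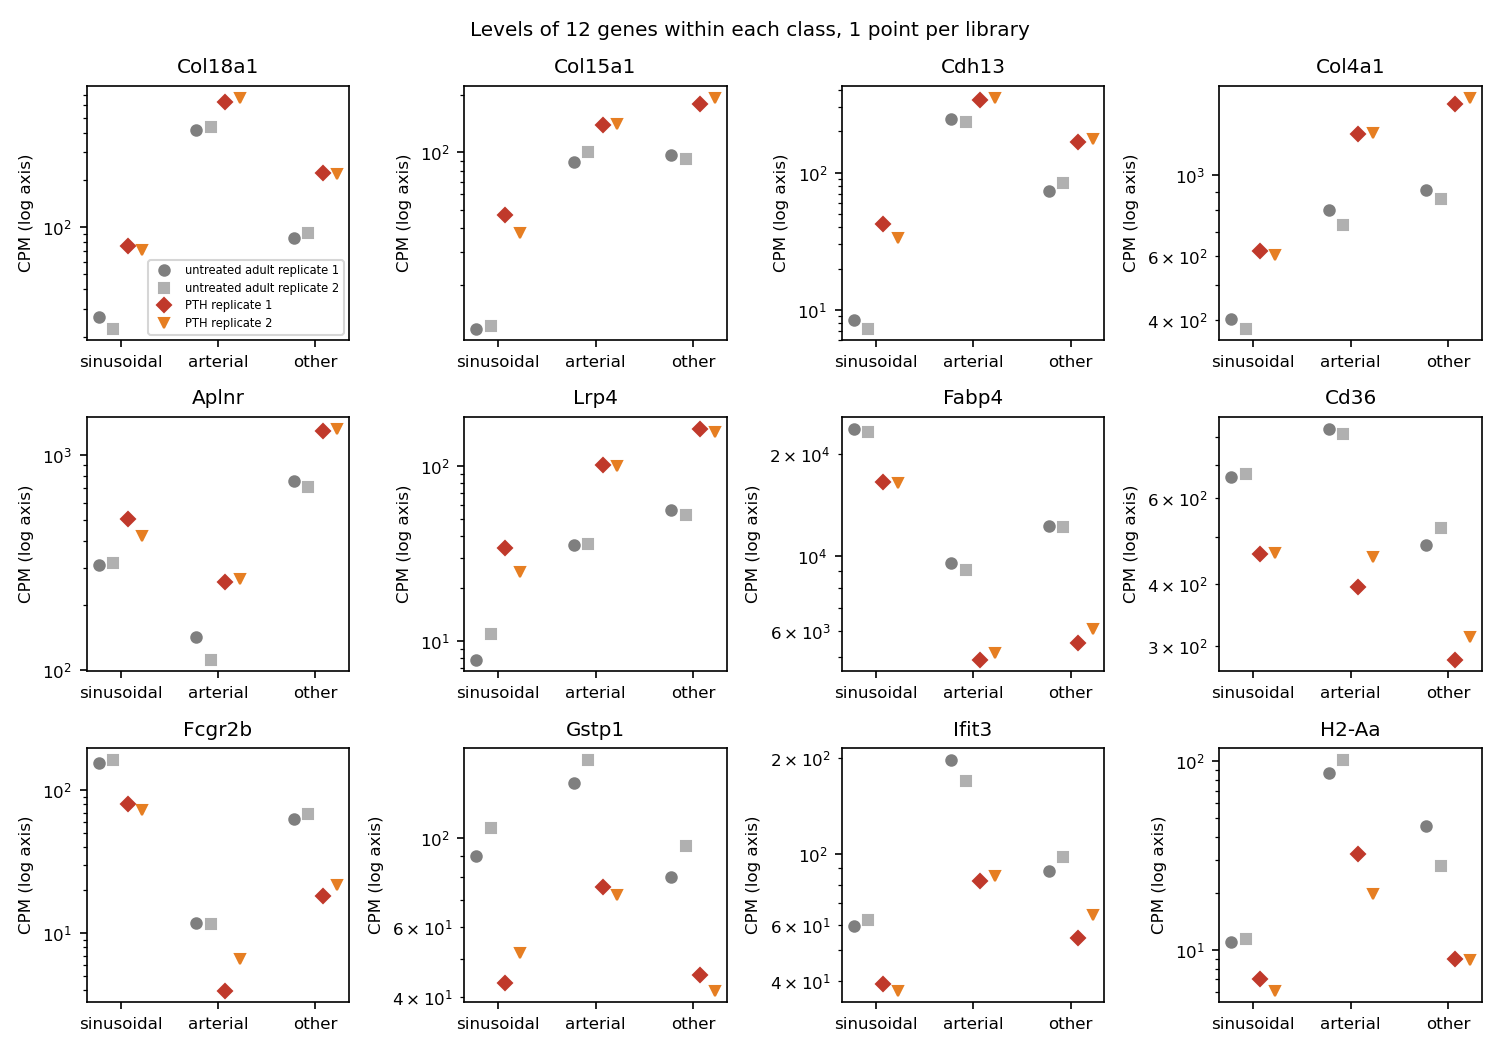
Level of 12 genes (CPM, log axis) in sinusoidal, arterial and other cells (x axis), 1 point per library. Col18a1, Col15a1, Cdh13, Col4a1, Aplnr and Lrp4 lie higher in both PTH libraries in every class, and the other 6 genes lie lower.

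Basement membrane and matrix genes were more often higher than lower. Over all cells 35 of 52 were higher and 5 lower (median 0.48), against 13.2% and 12.5% of all genes tested, and within sinusoidal, arterial and other cells 23 of 49, 18 of 46 and 30 of 49 were higher and 1, 4 and 5 lower. The shares of higher genes over all genes were 4.15%, 3.16% and 7.89%. The count of higher members dropped to 14 of 42 in sinusoidal cells thinned to 2000 UMIs. In arterial cells it was 10 and 9 without untreated replicates 1 and 2, where none was lower, and 7 with DESeq2. Over all cells 3 were lower without untreated replicate 1 or PTH replicate 1. Col4a1, a chain of the main collagen of basement membranes, stood at 403 and 379 against 618 and 602 CPM in sinusoidal, at 800 and 727 against 1291 and 1306 CPM in arterial and at 908 and 857 against 1563 and 1629 CPM in other cells. The groups did not overlap in any class, and the log2 changes were 0.64, 0.76 and 0.86. Lamb1, a laminin chain, changed by 1.40, 0.70 and 1.03, and Thbs1, which encodes the matrix protein thrombospondin 1, by 2.19, 2.01 and 1.55. Col13a1, a transmembrane collagen, changed by 1.49, 1.13 and 1.74. Without 1 library several of these calls were lost: that of Lamb1 in arterial cells without untreated replicate 2, those of Thbs1 in sinusoidal cells without PTH replicate 2 and in arterial cells without untreated replicate 1 (1.40) or PTH replicate 1 (1.80), and that of Col13a1 in sinusoidal cells without any 1 of the 4 libraries. Thinning to 2000 UMIs ended the calls of Lamb1 in sinusoidal (0.77) and Col13a1 in arterial cells (0.50).

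The fibrillar collagens of osteoblasts were in the same list but lay in few cells. Col1a1 stood at 6.62, 2.38, 109 and 84.0 CPM over all cells in untreated 1, untreated 2, PTH 1 and PTH 2, and 1 cell held 983 of its 1134 UMIs in PTH replicate 1 and another 1809 of 2107 in PTH replicate 2. For Col1a2 single cells held 536 of 702 and 1448 of 1776 UMIs. Without the cells that carried markers of other types (defined below) the log2 changes over all cells were 1.92 in place of 4.38 for Col1a1 and 1.14 in place of 3.09 for Col1a2, and both still passed. Without those cells the matrix list still had 35 of 49 genes higher and 6 lower.

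Among the genes named by the size of their change over all cells or in a class, several were higher in all 3 classes. Cdh13 encodes T-cadherin, a receptor of adiponectin and LDL. It stood at 8.39 and 7.28 against 42.2 and 33.6 CPM in sinusoidal cells, at 248 and 236 against 340 and 353 CPM in arterial cells, and at 74.0 and 83.6 against 168 and 177 CPM in other cells. Its log2 changes were 2.22 (SE 0.14), 0.52 (SE 0.07) and 1.13 (SE 0.07), with edgeR adjusted p = 5.39e-06, 0.000122 and 4.89e-06.

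Lrp4, a Wnt and agrin co-receptor, stood at 7.78 and 10.98 against 34.2 and 24.9 CPM in sinusoidal, at 35.3 and 35.9 against 102 and 100.2 CPM in arterial and at 56.1 and 53.0 against 165 and 158 CPM in other cells. Both PTH libraries lay above both untreated ones in each class, and the log2 changes were 1.59 (SE 0.19), 1.504 (SE 0.12) and 1.56 (SE 0.07). Cthrc1, which encodes a secreted protein of remodelling matrix, changed by 2.72, 0.91 and 1.73. Cd109, a cell-surface co-receptor that binds TGF-beta, changed by 2.38, 1.20 and 1.67, and Pdlim4, an actin-linked protein, by 1.94, 1.12 and 1.21. Vwf, the von Willebrand factor gene, changed by 1.35, 0.73 and 1.37. S100a4 and S100a6 encode calcium-binding proteins, and S100a4 changed by 1.65, 0.92 and 1.06 and S100a6 by 1.54, 0.28 and 1.17. The arterial call of Vwf was lost without untreated replicate 1 (0.38) or PTH replicate 2 (0.36), and that of S100a6 without either untreated library or on thinning to 2000 UMIs (0.14).

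Arterial markers were mostly higher over all cells and in sinusoidal and other cells, and mostly not called in arterial cells. Over all cells 29 of 31 were higher and 1 lower (13.2% and 12.5% of all genes tested), of which 4 also chose the arterial class. In sinusoidal cells 18 of 27 were higher and 1 lower (median 0.68), against 4.15% and 3.04% of all genes, and in other cells 16 higher and 4 lower (median 0.33), against 7.89% and 8.69%. The higher count was 6 of 24 in sinusoidal cells thinned to 2000 UMIs, and with DESeq2 it was 11 in sinusoidal and 8 in other cells. In arterial cells 4 were higher and 7 lower, with a median of 0.02, against 3.16% and 3.61%. Without either untreated library 2 were higher there and none lower, and without PTH replicate 1 the higher count was 8. Hey1, a Notch target gene of arteries, was higher in sinusoidal (1.63), arterial (0.60) and other cells (1.00). Vegfc, a growth factor of lymphatic vessels, stood at 294 and 265 against 288 and 316 CPM in arterial cells, where the groups overlapped, and was higher in sinusoidal (0.80) and other cells (0.81), the former call being lost without PTH replicate 2 (0.62) or on thinning to 2000 UMIs (0.79), as was the sinusoidal call of Hey1 on thinning (1.19). Igfbp3, an IGF-binding protein, was lower in arterial cells, at 1984 and 2025 against 1728 and 1617 CPM (log2 change -0.26), and higher in sinusoidal cells (0.77). The arterial call of Igfbp3 was lost without either untreated library and with the replicate number as a block. The sinusoidal rule set no upper limit on arterial genes, and no correction was made for RNA leaked from lysed cells. The part of mixed cells and leaked RNA in the levels of arterial markers in sinusoidal and other cells was not tested.

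Most sinusoidal markers were lower over all cells and in other cells, and most were not called in arterial cells. Over all cells 26 of 28 were lower (12.5% of all genes tested were) and 1, Lyve1, was higher, with a median of -0.69. In other cells 22 of 26 were lower (8.69%) and Lyve1 was higher, with a median of -0.85. In arterial cells 5 of 26 were lower (3.61%) and none higher, with a median of -0.16, and in sinusoidal cells 4 of 25 were lower and 6 higher (3.04% and 4.15%) with a median of -0.05. The lower count in arterial cells was 2 without untreated replicate 1 and 3 without untreated replicate 2 or PTH replicate 2. In sinusoidal cells it was 8 without PTH replicate 2 or without cells marked for other types, 11 of 27 without a filter on low counts and 2 on thinning to 2000 UMIs. Cells with 1 or 2 Stab2 UMIs, which are not in the sinusoidal class, numbered 821, 832, 464 and 1147 in untreated 1, untreated 2, PTH 1 and PTH 2. Their part in the lower levels of other cells was not tested.

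Adamts5, a protease of the proteoglycan matrix, stood at 330 and 337 against 115 and 121 CPM in other cells (log2 change -1.50, SE 0.05) and at 1280 and 1223 against 1088 and 1136 CPM in sinusoidal cells (-0.17, SE 0.04). Vcam1, an adhesion molecule for blood progenitors, stood at 486 and 464 against 172 and 183 CPM in other cells (-1.42, SE 0.05). In sinusoidal cells it stood at 1640 and 1532 against 1349 and 1479 CPM and did not pass (edgeR adjusted p = 0.0660). The sinusoidal call of Adamts5 was lost without untreated replicate 1, with DESeq2, with the replicate number as a block and on thinning to 2000 UMIs, where the change was -0.036. Fcgr2b, the inhibitory IgG receptor of sinusoids, was lower in sinusoidal (-1.07) and other cells (-1.68), and in arterial cells it stood at 11.9 and 11.6 against 3.97 and 6.58 CPM without passing (edgeR adjusted p = 0.0747). Lyve1, a hyaluronan receptor of lymphatic vessels, was the only sinusoidal-list gene that was higher over all cells, at 0.505 and 1.16 against 2.11 and 4.70 CPM, and its call was lost without untreated replicate 1 or PTH replicate 2.

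**Figure D3:**
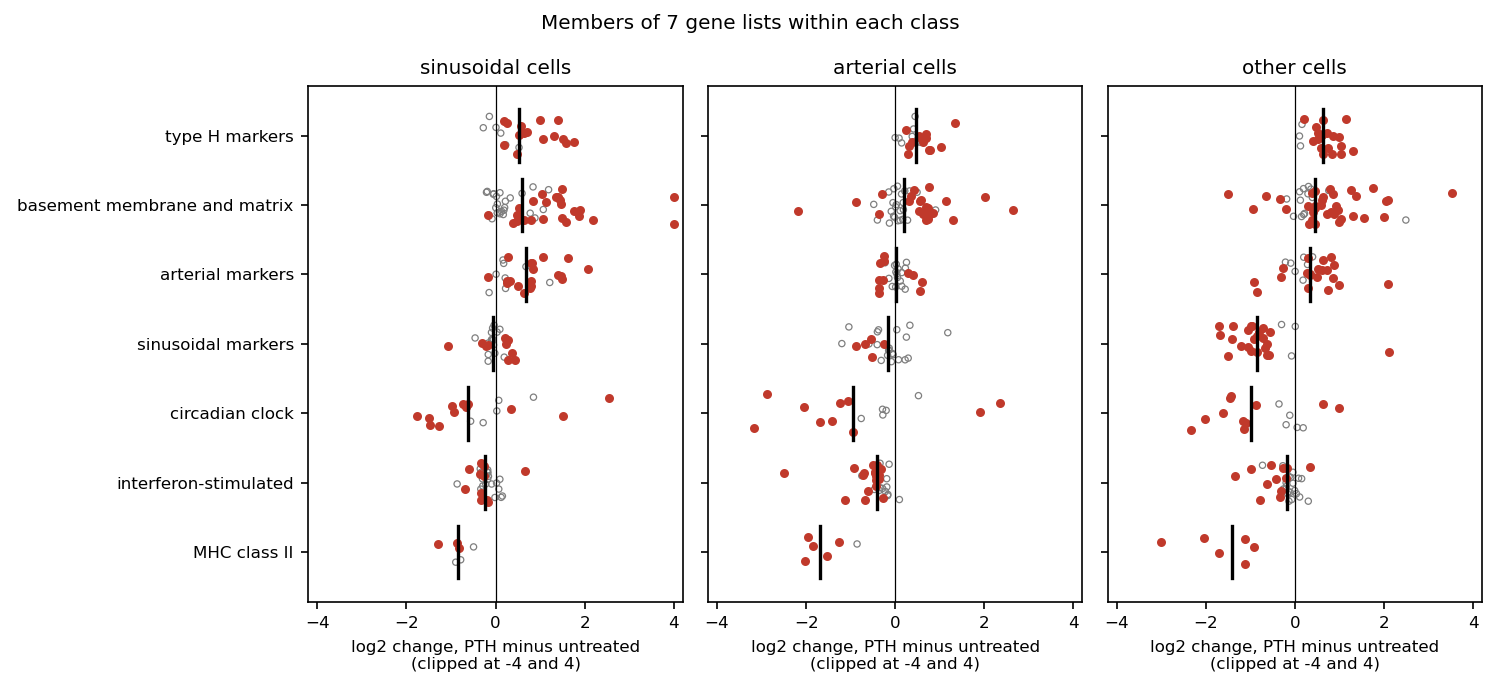
Log2 change with PTH (x axis, clipped at -4 and 4) of the members of 7 gene lists (y axis) in sinusoidal, arterial and other cells. Filled points passed the test, open points did not, and bars are list medians. Type H medians lie above 0 and clock and MHC class II medians below 0 in all 3 panels, and the sinusoidal marker median is -0.05 in sinusoidal and -0.85 in other cells.

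Most clock genes that passed the test were lower with PTH, and a few were higher. The clock is a feedback loop in which Arntl (Bmal1) with its partner drives genes such as Per, Cry, Nr1d1 and Nr1d2 through E-boxes, and the output factors Dbp, Tef and Hlf bind D-boxes. Over all cells 10 of 17 clock genes were lower and 2 higher, with a median of -0.88. In sinusoidal cells 9 of 17 were lower and 3 higher, in arterial cells 8 of 15 and 2, and in other cells 9 of 16 and 2. The backgrounds of lower genes were 12.5% over all cells and 3.04%, 3.61% and 8.69% in the classes. Those of higher genes were 13.2% over all cells and 4.15%, 3.16% and 7.89% in the classes. The count of higher clock genes over all cells was near the background. In sinusoidal cells the lower count was 4 of 15 on thinning to 2000 UMIs and 5 with DESeq2. The higher genes were Arntl over all cells and in each class, Nfil3 over all, arterial and other cells, and Npas2 and Bhlhe40 in sinusoidal cells. Bhlhe41, the paralogue of Bhlhe40, was lower over all, arterial and other cells.

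The promoters of 3 lower genes are shown because each held a motif of the loop or of cAMP signalling. Letters in capitals mark the motif, and sequences are from RefSeq on GRCm38.p6, 250 bases before to 50 after the annotated start. Per3 lies at chr4:151044616-151044915 on the minus strand with D-boxes at -205 and -158. One of the 2 Tef promoters lies at chr15:81802423-81802722 on the plus strand with an E-box at -127. Hlf lies at chr11:90390868-90391167 on the minus strand with a cAMP response element at -9.
Per3: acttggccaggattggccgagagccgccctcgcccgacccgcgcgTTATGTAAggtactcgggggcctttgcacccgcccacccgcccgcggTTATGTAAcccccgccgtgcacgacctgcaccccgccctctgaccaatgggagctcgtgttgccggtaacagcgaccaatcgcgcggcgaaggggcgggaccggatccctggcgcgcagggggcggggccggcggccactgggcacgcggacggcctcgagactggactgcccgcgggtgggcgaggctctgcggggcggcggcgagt
Tef: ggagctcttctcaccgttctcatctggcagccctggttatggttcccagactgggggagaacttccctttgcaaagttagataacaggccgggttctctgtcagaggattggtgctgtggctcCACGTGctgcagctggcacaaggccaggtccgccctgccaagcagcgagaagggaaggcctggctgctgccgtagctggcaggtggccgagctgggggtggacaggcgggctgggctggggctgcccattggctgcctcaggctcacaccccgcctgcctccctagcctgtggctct
Hlf: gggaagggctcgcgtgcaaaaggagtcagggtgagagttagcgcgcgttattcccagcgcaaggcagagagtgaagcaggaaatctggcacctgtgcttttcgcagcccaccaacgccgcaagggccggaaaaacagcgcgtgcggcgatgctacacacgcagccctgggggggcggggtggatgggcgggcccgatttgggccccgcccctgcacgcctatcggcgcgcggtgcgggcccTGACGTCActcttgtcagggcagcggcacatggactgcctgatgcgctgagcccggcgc
The letters CACGTG (E-box), TTATGTAA, TTACATAA or TTACGTAA (D-box) and TGACGTCA (cAMP response element) were searched on both strands and do not overlap each other. They occurred in 7.15%, 1.06% and 1.79% of 32851 promoters. Of 16 clock genes that matched the table, 5 held an E-box (Bhlhe41, Ciart, Cry1, Per1 and Tef), 1 a D-box and 1 a cAMP response element. Counted by promoter as the background is, these were 6, 1 and 1 of 21 clock promoters. A match describes the letters of the window and not a bound site.

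Per3, a repressor arm gene whose promoter is printed above, stood at 136 and 137 against 59.0 and 55.5 CPM in sinusoidal, at 141 and 175 against 48.5 and 48.7 CPM in arterial and at 126 and 128 against 49.9 and 45 CPM in other cells. Both PTH libraries lay below both untreated ones in each class, and the log2 changes were -1.26 (SE 0.07), -1.69 (SE 0.12) and -1.43 (SE 0.07). The counts of Per3 were spread over cells, with the top 10 cells of a library holding 2.76% to 6.63% of its UMIs. Tef changed by -0.97, -1.43 and -1.45, Dbp by -1.75, -2.87 and -2.01 and Hlf by -1.49, -3.17 and -1.62 in sinusoidal, arterial and other cells. The arterial call of Hlf was lost without either untreated library or PTH replicate 2 (-2.39). Arntl moved the other way, from 8.86 and 7.63 to 20.4 and 19.9 CPM over all cells (log2 change 1.28, SE 0.10), and was higher in each class. The sinusoidal call of Dbp was lost on thinning to 2000 UMIs (-0.91). The hour at which the animals of each group were killed is not given in the sources used here, so time of day and PTH cannot be told apart.

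**Figure D4:**
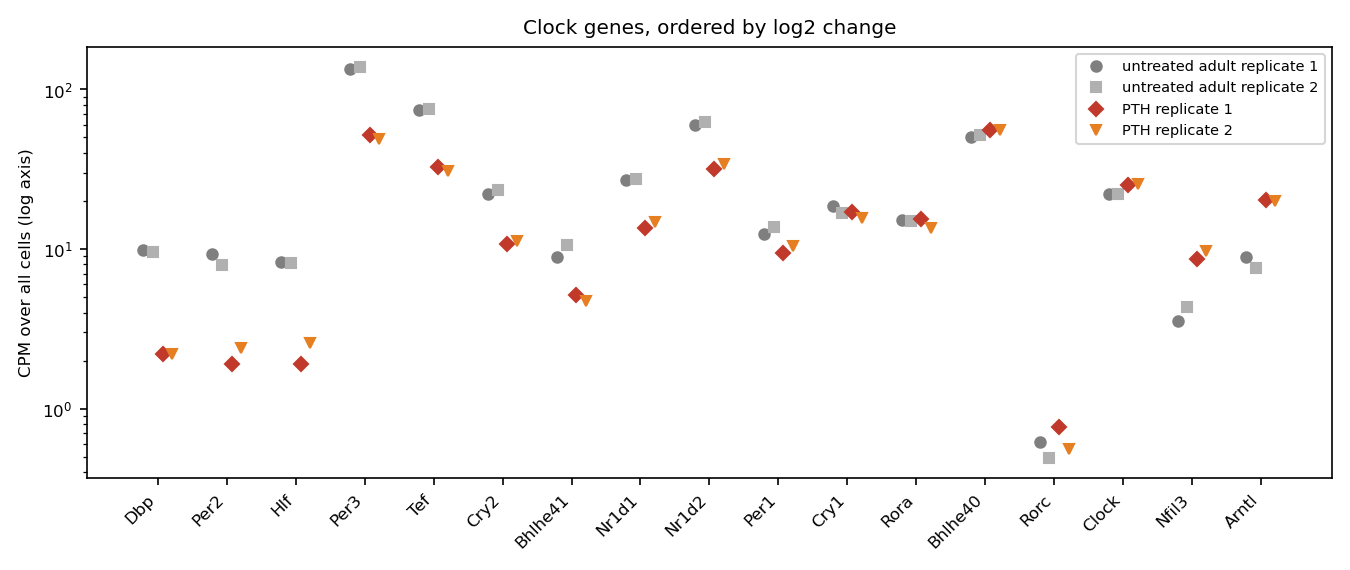
Level over all cells (CPM, log axis) of the 17 tested clock genes, ordered by log2 change from lowest to highest (x axis), 1 point per library. Dbp, Per2, Hlf and Per3 lie lower in both PTH libraries, and Arntl lies higher.

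The PTH receptor itself was barely detected. Pth1r stood at 3.87 and 1.40 against 2.97 and 3.55 CPM over all cells, a log2 change of 0.32 (SE 0.38) that did not pass (edgeR adjusted p = 0.599). The groups overlapped, and 1 cell held 56 of the 69 UMIs of untreated replicate 1. Of 25 genes of PTH and cAMP signalling, 9 were higher and 3 lower over all cells (median 0.17), against 13.2% and 12.5% of all genes tested, so the lower count was near the background. It was 0 or 1 without any 1 library. In sinusoidal, arterial and other cells 4 of 23, 2 of 23 and 5 of 24 were higher, against 4.15%, 3.16% and 7.89%, and with DESeq2 the first and last counts were 2 and 3. Rgs2, a regulator of G-protein signalling that cAMP induces, stood at 51.3 and 53.6 against 119 and 122 CPM in arterial cells (log2 change 1.20) and was also higher in sinusoidal (0.70) and other cells (0.71). Rapgef4, the cAMP-activated exchange factor Epac2, was higher in sinusoidal (0.95) and other cells (0.73) but not in arterial cells (0.30, edgeR adjusted p = 0.133), and its sinusoidal call was lost on thinning to 2000 UMIs (0.67). Crem, a cAMP-responsive transcription factor, was higher in arterial (0.52) and other cells (0.49), the former call being lost without either untreated library or PTH replicate 2 (0.39). Gnas, the stimulatory G-protein subunit, changed by 0.72 over all cells, a call that was lost without untreated replicate 1.

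Genes for signals between vessels and bone cells were more often higher than lower over all cells. Of 33 coupling factors 18 were higher and 6 lower over all cells (13.2% and 12.5% of all genes tested), with a median of 0.37. The counts of higher and lower members were 10 and 1 of 26 in sinusoidal, 3 and 5 of 25 in arterial (median -0.07) and 10 and 5 of 29 in other cells. The shares over all genes were 4.15% and 3.04%, 3.16% and 3.61%, and 7.89% and 8.69%. The lower count over all cells was 3 without untreated replicate 2 or PTH replicate 2. In arterial cells 1 was higher and 3 lower without untreated replicate 1, 1 and 1 without untreated replicate 2, and 2 were lower without PTH replicate 2. In other cells 6 were higher without PTH replicate 2 and 3 lower without untreated replicate 1, and 4 were higher with DESeq2. In sinusoidal cells 6 were higher with DESeq2 and on thinning to 2000 UMIs. Mgp, matrix Gla protein, an inhibitor of calcification, stood at 31.8 and 34.9 against 88.8 and 96.1 CPM in sinusoidal cells (log2 change 1.48, SE 0.08). In arterial cells it stood at 825 and 959 against 843 and 918 CPM, with overlapping groups and no call. In other cells the change of Mgp was 2.09 (SE 0.36), and 1 cell held 1494 of the 11038 UMIs of PTH replicate 2 over all cells. The BMP antagonist Nog was at 0.112 and 0.366 against 0.575 and 1.48 CPM and its call was lost without either untreated library. Slit3, an axon-guidance ligand, was at 1.96 and 2.32 against 1.05 and 0.997 CPM, and its call was lost without any 1 of the 4 libraries.

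Among Wnt genes 9 of 27 were higher and 4 lower over all cells, against 13.2% and 12.5% of all genes, so the lower count was near the background. It was 1 without untreated replicate 1 and 2 without PTH replicate 1. Dkk2, a secreted Wnt modulator, stood at 27.0 and 33.7 against 90.3 and 116 CPM in arterial cells, a log2 change of 1.80 (SE 0.15, edgeR adjusted p = 1.58e-06). It was lower in abundance but also higher with PTH in sinusoidal (2.94) and other cells (2.30), the last call being lost without PTH replicate 2. Notum, a secreted Wnt inhibitor, changed by 2.12 over all cells, and by 0.13 without the cells that carried markers of other types, where it did not pass. Nkd1 changed by 1.07 and lost its call without either untreated library.

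MHC class II genes were mostly lower, and class I and interferon genes were lower in part. Over all cells 12.5% of genes were lower, and 3.04%, 3.61% and 8.69% in sinusoidal, arterial and other cells. Of 8 MHC class II genes 7 were lower over all cells, with a median of -0.95, and 3 of 6, 5 of 6 and 6 of 6 were lower in sinusoidal, arterial and other cells. H2-Aa stood at 87.0 and 102 against 32.2 and 19.8 CPM in arterial cells (log2 change -1.96, SE 0.18, edgeR adjusted p = 2.51e-06) and at 45.5 and 27.9 against 9.0 and 8.86 CPM in other cells (-2.05, SE 0.22). Cd74, the invariant chain that escorts class II molecules, stood at 145 and 231 against 67.9 and 33.3 CPM in arterial cells (-2.03, SE 0.23). These genes are also leukocyte genes, and the top 10 cells held 35.4% to 62.1% of the Cd74 UMIs of a library. Without cells marked for other types 5 of 6 class II genes were lower in other and 6 of 6 in arterial cells. In sinusoidal cells the calls of H2-Aa and Cd74 were lost without PTH replicate 2, and that of H2-Aa also without untreated replicate 2, and both were lost on thinning to 2000 UMIs (-0.67 and -0.50). The sinusoidal class II count was 1 without PTH replicate 2 and 0 of 3 on thinning.

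Of 17 MHC class I and peptide-loading genes, 12 were lower over all cells, 12 in arterial, 12 in other and 3 in sinusoidal cells, and none was higher. The count in arterial cells dropped to 2 and 5 without untreated replicates 1 and 2, to 6 with DESeq2 and to 7 on thinning to 2000 UMIs, and that in sinusoidal cells was 6 without PTH replicate 1 and 1 on thinning. H2-Q4 stood at 245 and 235 against 133 and 137 CPM in arterial cells (log2 change -0.83). Of the interferon-stimulated genes 18 of 31 were lower in arterial cells (median -0.40), 10 of 33 in sinusoidal and 11 of 33 in other cells. Over all cells 15 of 33 were lower, 2 (Ifit1 and Rsad2) were higher and 16 were not called. The arterial count was 8 and 10 without untreated replicates 1 and 2 and 7 on thinning to 2000 UMIs, and the sinusoidal count 6 without untreated replicate 1. With DESeq2 the counts were 9 over all cells, 7 in arterial, 4 in sinusoidal and 6 in other cells. Ifit3, an antiviral effector, stood at 197 and 169 against 82.0 and 85.2 CPM in arterial cells (log2 change -1.13, SE 0.09) and was lower in sinusoidal (-0.68) and other cells (-0.62). Cxcl9, a T-cell chemokine, was lower in each class (-0.59, -2.49 and -1.33). Its arterial call was lost without untreated replicate 2 (-1.27) or PTH replicate 2 (-1.97), and without cells marked for other types (-0.90), and its sinusoidal call on thinning to 2000 UMIs (-0.28). Rsad2, an antiviral enzyme of the same list, was higher in sinusoidal (0.66) and other cells (0.34), the latter call being lost without untreated replicate 2 (0.18) or PTH replicate 2 (0.23), and the former on thinning to 2000 UMIs (0.57).

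Fabp4 and Cd36, genes of lipid uptake, were lower in every class. Fabp4, the fatty acid carrier of capillaries, stood at 23755 and 23154 against 16473 and 16419 CPM in sinusoidal, at 9491 and 9074 against 4917 and 5163 CPM in arterial and at 12196 and 12184 against 5532 and 6084 CPM in other cells. The groups did not overlap, and the log2 changes were -0.51 (SE 0.02), -0.88 (SE 0.08) and -1.07 (SE 0.05). Cd36, a fatty acid translocase, stood at 832 and 809 against 395 and 456 CPM in arterial cells (-0.94, SE 0.07) and changed by -0.53 in sinusoidal and -0.75 in other cells. The list of fatty acid and caveolae genes as a whole was split, with 8 of 27 higher and 7 lower over all cells, against 13.2% and 12.5% of all genes, and 5 higher without untreated replicate 2. Cav1, the caveolin of flat caveolae-rich endothelium, was higher in sinusoidal (0.90) and other cells (0.37), the latter call being lost without PTH replicate 2 (0.21) or with all cells of 500 or more genes (0.15), and stood at 896 and 859 against 851 and 895 CPM in arterial cells, with overlapping groups. Meox2, a transcription factor of fatty acid transport, changed by 1.31 over all cells.

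Immediate early genes, which dissociation of tissue can also induce, were counted in each class, and the difference between classes was tested for single genes and not for the list. In sinusoidal cells 15 of 29 were higher and none lower, in arterial cells 1 and 1 of 28, and in other cells 6 and 5 of 29. The shares of higher and lower genes over all genes tested were 4.15% and 3.04%, 3.16% and 3.61%, and 7.89% and 8.69%. The lower count in arterial cells was 3 without PTH replicate 2. In other cells it was 3 without PTH replicate 2, 8 without untreated replicate 2 and 12 without cells marked for other types. Fos stood at 512 and 547 against 705 and 679 CPM in sinusoidal cells (log2 change 0.38) and at 418 and 376 against 335 and 276 CPM in other cells (-0.39). Among heat shock genes, Hspa1a stood at 51.3 and 55.2 against 14.5 and 14.8 CPM in sinusoidal cells (-1.85, SE 0.09) and at 40.7 and 37.9 against 13.7 and 12.7 CPM in other cells (-1.59, SE 0.12). In arterial cells it stood at 45.8 and 40.9 against 34.4 and 41.2 CPM, with overlapping groups and no call. Dissociation time is not given per library, so its part was not tested.

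Counts of cell cycle genes depended on the class, on a few cells and on thinning, which also redrew the classes. In other cells 21 of 37 were lower and 2 higher (median -0.51), but without cells marked for other types 1 was lower and 2 higher, with a median of 0.05, and on thinning to 2000 UMIs 1 was lower and 1 higher, with a median of -0.22. The shares over all genes were 8.69% lower and 7.89% higher. The lower count was 12 without PTH replicate 2 and 6 with DESeq2. Top2a, the DNA topoisomerase of dividing cells, stood at 68.3 and 72.6 against 48.9 and 45.2 CPM in other cells (log2 change -0.59), and at 0.23 on the log2 scale, with no call, without the marked cells. In arterial cells 4 of 22 cell cycle genes were higher and 3 lower, against 3.16% and 3.61% of all genes. Without either untreated library 1 was higher and 1 lower, without PTH replicate 1 the higher count was 2, and without PTH replicate 2 7 of 30 were higher and 1 lower. Top2a stood there at 1.83 and 2.21 against 16.8 and 8.49 CPM (2.50, SE 0.50), Cdk1 at 4.12 and 4.42 against 17.2 and 9.70 CPM and Birc5 at 3.21 and 3.32 against 15.9 and 8.66 CPM. The PTH libraries were higher without overlap, but all 3 calls were lost without either untreated library and those of Cdk1 and Birc5 also without PTH replicate 1. Cdkn1a, the cell cycle inhibitor p21, was higher in sinusoidal (0.40), arterial (1.06) and other cells (0.33). The sinusoidal call was lost without untreated replicate 2 or PTH replicate 1, and the call in other cells without untreated replicate 2 or PTH replicate 2.

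A further set of genes with large changes lay in few cells. Igfbp6, an IGF-binding protein, stood at 3.87 and 5.55 against 57.8 and 28.1 CPM over all cells (log2 change 3.14), and the top 10 cells held 71.8% and 67.0% of its UMIs in PTH replicates 1 and 2. The same shares were 54.8% and 38.7% for Fgl2 (3.05), 67.4% and 57.6% for the BMP antagonist Nbl1 (3.04) and 66.6% and 61.7% for Gsn, the actin-severing gelsolin (2.13). Igj, the immunoglobulin J chain, stood at 4.32, 147, 0.0958 and 0.199 CPM, and 1 cell held 1193 of the 2402 UMIs of untreated replicate 2. Its call was lost without either PTH library. Prss34 and Mcpt8, proteases of basophils, changed by -1.99 and -1.48, and the top 10 cells held 81.8% to 94.1% of their UMIs in every library.

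Sums of the markers of several other cell types differed between the groups, and erythroid markers were abundant in the untreated libraries. The 6 erythroid markers summed to 1614 and 2212 CPM in the untreated and to 152 and 122 CPM in the PTH libraries. The lymphoid list summed to 65.0 and 720 against 4.89 and 4.93 CPM, and the osteoblast list to 39.6 and 38.2 against 208 and 529 CPM. Neutrophil markers summed to 301 and 538 against 306 and 141 CPM, megakaryocyte markers to 112 and 107 against 167 and 156 CPM, and mural markers to 449 and 486 against 367 and 369 CPM. In sinusoidal cells nearly all of the mural sum was Kcnj8, at 596 and 578 against 616 and 654 CPM. Acta2, Myh11 and Rgs5 were each at or below 3.13 CPM there. These levels were scaled jointly over the sums of all 3 classes, unlike the marker sums. Monocyte and macrophage, mesenchymal stromal and chondrocyte markers summed to at most 20.8, 88.3 and 62.4 CPM in any library, osteoclast markers to 6.36 CPM, myofibre markers to 7.11 CPM and lymphatic markers to 50.6 CPM. Some markers had no UMI in a library, namely 2 of 5 monocyte and macrophage markers in PTH replicate 1, 1 of 5 lymphoid markers in 3 libraries, and 2 of 7 myofibre markers in each untreated library.

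No doublet caller was run, so the ceiling of 6000 genes and the absence of Ptprc were the only guards against cell pairs. Cells with 10 or more UMIs of any 1 of these lists, 188, 203, 96 and 203 in number, held most of the erythroid and neutrophil counts of each library. For erythroid markers 53 cells held 26291 of 29389 UMIs in untreated replicate 1, while for mural markers such cells held 1420 of 8178 and for osteoclast markers none of 84. The mural list marked 66, 63, 25 and 92 cells in untreated 1, untreated 2, PTH 1 and PTH 2. Since its member Kcnj8 was high in sinusoidal cells, some of the removed cells may be endothelial. Without the marked cells the erythroid sums were 177 and 201 against 38.9 and 48.9 CPM and the osteoblast sums 15 and 14.3 against 13.2 and 23.9 CPM. The removal was chosen after seeing the data and gave 4211 calls over all cells, 1319 in sinusoidal, 886 in arterial and 1764 in other cells. The type H counts were then 19 of 21 over all cells, 17 of 21 in arterial, 18 of 21 in other and 15 of 21 in sinusoidal cells, where 1 was lower, and 10 of 17 clock genes were lower over all cells.

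**Figure D5:**
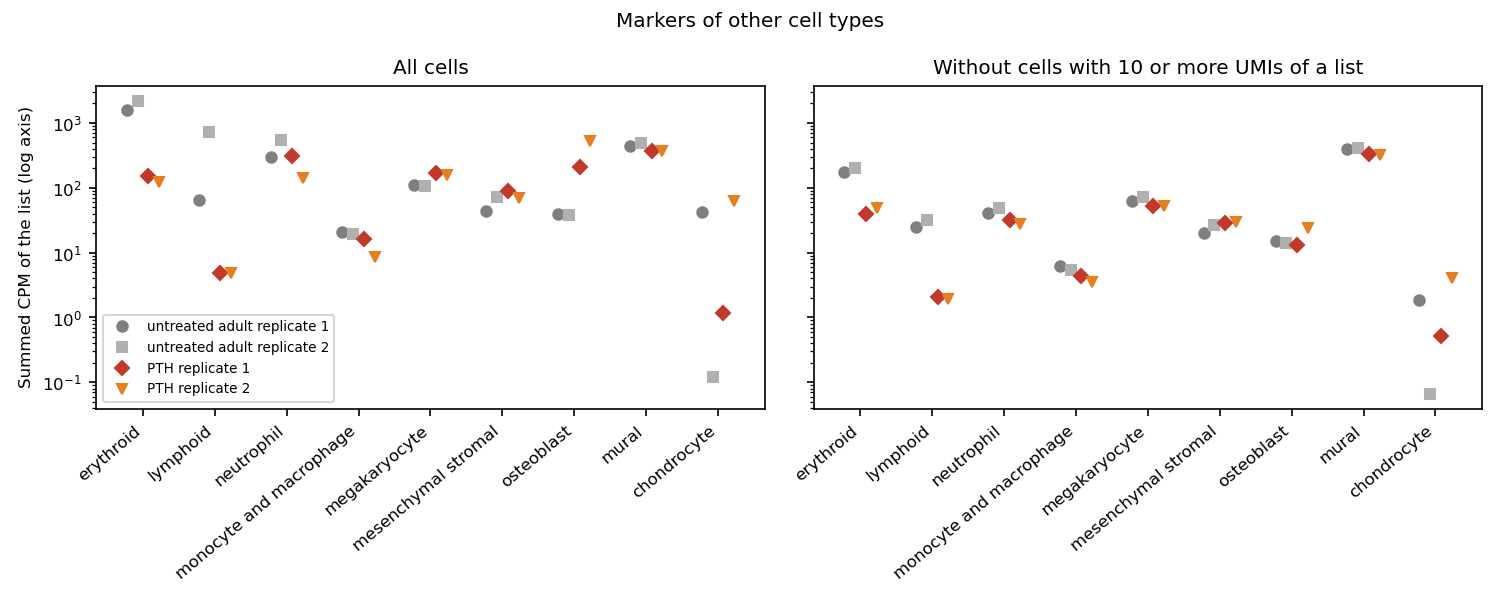
Summed level of the markers of 9 other cell types (CPM, log axis), 1 point per library, over all cells (left) and without cells with 10 or more UMIs of a list (right). Erythroid and lymphoid sums are higher in the untreated libraries in both panels, and osteoblast sums are higher in both PTH libraries on the left only.

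In type R marker cells 209 of 5035 genes (4.15%) passed, 101 higher (2.01%) and 108 lower (2.14%), from sums of 76 to 259 cells. The whole type R list leaned higher over all cells, with 16 of 27 higher and 4 lower (13.2% and 12.5% of all genes tested). Counts of higher and lower members were 10 and 4 in sinusoidal, 3 and 7 in arterial and 10 and 6 in other cells. The shares over all genes were 4.15% and 3.04%, 3.16% and 3.61%, and 7.89% and 8.69%. With a floor of 500 genes the higher count in other cells was 4. Within type R marker cells, list genes other than those that chose the cells were lower more often than higher. Their counts were 11 lower and 2 higher of 22, with a median of -0.41. Fatty acid and caveolae genes were lower in 9 and higher in 1 of 20. Both lower counts depended on thinning and on single libraries. On thinning to 2000 UMIs they were 4 and 1, without PTH replicate 1 they were 5 and 4, without untreated replicate 1 they were 7 and 5, and with DESeq2 they were 7 and 5. Of 15 type H genes 3 (Col4a1, Trp53i11 and Col18a1) were higher and Aplnr was lower, and the higher count was 1 without untreated replicate 1, without PTH replicate 2 and with DESeq2. Aplnr stood at 923 and 1246 against 556 and 810.4 CPM (log2 change -0.64, SE 0.13), a call lost without untreated replicate 2 (-0.39) or PTH replicate 1 (-0.41), with DESeq2 and on thinning to 2000 UMIs. Col18a1 stood at 62.9 and 68.6 against 193 and 166 CPM (log2 change 1.40, SE 0.26), and Per3 at 220 and 238 against 60.0 and 72.1 CPM (-1.73, SE 0.22), both without overlap. Eln, the elastin gene, stood at 31.5 and 32.5 against 160 and 99.2 CPM (1.88, SE 0.34). Cav1 stood at 2424 and 2296 against 1672 and 1992 CPM (-0.36, SE 0.11), a call lost without either untreated library or PTH replicate 1 (-0.23). Mt2 (2.49), Irak4 (1.95), Itga3 (1.95) and Tgfbi (1.78) were the other genes with the largest rises by the naming rule, and Alpl (-2.73), Ptger4 (-2.61), Arhgef25 (-2.40), Tef (-1.90) and Zbtb22 (-1.80) had the largest falls. Each of these calls other than that of Tef was lost without at least 1 of the untreated libraries. Those of Mt2, Irak4, Tgfbi, Ptger4, Arhgef25 and Zbtb22 were lost without any 1 of the 4 libraries. With all 10 libraries in 1 fit the calls of Mt2, Irak4, Itga3 and Tgfbi were lost too.

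The change with PTH was also compared between classes within libraries. It differed between arterial and sinusoidal cells for 229 of 13187 genes (1.74%) and between other and sinusoidal cells for 344 (2.61%). The change of Cdh13 was smaller in arterial than in sinusoidal cells by 1.67 on the log2 scale (difference -1.67, SE 0.16, edgeR adjusted p = 5.08e-06). For Col18a1 the difference was -0.93 (SE 0.11, edgeR adjusted p = 5.56e-05), a call that was lost on thinning to 2000 UMIs (-0.69). For Lrp4 it was -0.08 (SE 0.21) between arterial and sinusoidal and -0.05 (SE 0.18) between other and sinusoidal cells, and neither passed. The fall of Adamts5 was larger in other than in sinusoidal cells (difference -1.33, SE 0.07, edgeR adjusted p = 1.92e-09). Cdh13 and Col18a1 stood higher in arterial than in sinusoidal cells of every library, and Adamts5 higher in sinusoidal than in other cells. The part of leaked RNA and of cells that mix vessel types in these differences was not tested.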

How the data were processed

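The deposited UMI count tables, 1 per library, were made by the authors with UMI-tools, STAR and featureCounts on mm10, as raw counts per gene and cell. Cells were chosen and classed as described, UMIs were summed per library, and genes kept by filterByExpr were tested with edgeR 4.0.16 (TMM scaling, quasi-likelihood, Benjamini-Hochberg threshold 0.05) in R 4.3.3. Gene levels are TMM-scaled CPM and marker sums plain CPM. Differences between classes used an interaction term with the library as a block. The 2 libraries of a group were compared as replicates, and no doublet caller was run. Members and lists were chosen with earlier results of these data known.

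Named genes were the 12 highest and 12 lowest log2 changes over all cells and 5 each per class, restricted to calls without overlap whose average level reached 20 CPM, the 4 largest differences between classes, and at most 4 called members per list. Values of these genes in other classes, and Ramp3, Col4a1, Emcn, Arntl, Cd36, Fos, Top2a, Cdk1, Birc5, Igfbp3, Ifit3 and Cdkn1a, as well as the class differences of Cdh13, Col18a1, Lrp4, Igfbp3, Top2a, Hspa1a, Adamts5, Vcam1 and Fos, were chosen after their values were seen. On simulated counts for all cells 79 of 102 genes changed by 1 on the log2 scale and 55 of 98 changed by 0.5 were recovered, beside 18 false calls. Recovery was lower in smaller fits. At 0.5 it was 38 of 102 in sinusoidal, 36 of 112 in arterial and 37 of 106 in other cells. At 1 it was 46 of 92 in type R marker cells and 100 of 200 for the arterial and sinusoidal difference. Alternatives were DESeq2 1.42.0, other scaling, no filter, a floor of 500 genes, under 10% mitochondrial UMIs, all 10 libraries in 1 fit, thinning, a replicate block and leaving out each library. Plain totals, a crossed block and removal of marked cells were added after seeing the data.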

Additional observations from a re-analysis of the deposited data

Results flagged for a closer look

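The results here were picked out because the change with PTH differed between classes by an interaction test (edgeR, adjusted p under 0.05). The part of leaked RNA and of cells that mix vessel types in any of these differences was not tested. Between arterial and sinusoidal cells the log2 differences were -1.67 for Cdh13, -0.93 for Col18a1, -1.01 for Igfbp3, 1.71 for Hspa1a and 2.38 for Top2a. The call of Top2a was lost without either untreated library (2.48 and 2.26) and on thinning to 2000 UMIs (1.59), where that of Col18a1 was lost too (-0.69). Igfbp6 (7.12), Cxcl10 (-4.23), Adipoq (-3.00) and Serpine2 (-2.43) also differed, and none of these 4 was called without cells marked for other types, where the differences were 1.75, -0.55, -0.09 and 1.14.

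Between other and sinusoidal cells the differences were -1.07 for Cdh13, -1.33 for Adamts5, -1.25 for Vcam1 and -0.78 for Fos. The globin genes Hba-a2 (-3.78), Hbb-bs (-3.66) and Hbb-bt (-3.26) and Igfbp6 (3.57) differed too. Without marked cells the calls of Hba-a2 (-0.74), Hbb-bt (-0.76) and Igfbp6 (1.24) were lost.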

How the results depend on the processing

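With DESeq2 the calls numbered 1894 over all cells, 377 in sinusoidal, 214 in arterial, 902 in other and 53 in type R marker cells, and 119 and 125 for the differences of arterial and of other from sinusoidal cells. Without a filter on low counts they were 1416 in sinusoidal cells and 489 and 532 for the 2 differences. Thinning to 2000 UMIs gave 491, 422 and 82 in sinusoidal, arterial and type R marker cells and 128 for arterial against sinusoidal cells, and a floor of 500 genes gave 376 in type R marker cells. Without marked cells the differences gave 388 and 530 calls. Leaving out 1 library gave 1928 to 2830 calls over all cells, 646 to 816 in sinusoidal, 248 to 666 in arterial and 106 to 176 in type R marker cells, and 64 to 339 and 139 to 424 for the differences. The cause was not tested, except that fewer libraries or UMIs enter some fits. Directions turned only without marked cells, for Birc5 (0.14), Cdk1 (0.37) and Top2a (0.50) over all cells, Top2a (0.23) and Birc5 (0.019) in other cells and Serpine2 (1.14) in the difference of arterial from sinusoidal cells. DESeq2 also lost class calls that the report prints, among them Cd74, Col15a1, Col13a1, Piezo2, Lamb1, Thbs1, Vwf, Crem, Cxcl9, Top2a, Cdk1 and Birc5 in arterial cells, H2-Aa, Hlf, Vegfc, Col13a1 and Cdkn1a in sinusoidal cells, and Arntl, Mgp, Lyve1 and Cdkn1a in other cells. A floor of 500 genes added cells to every library but PTH replicate 1. With it the calls of Cdk1 (1.24), Vwf (0.58) and Igfbp3 (-0.25) in arterial cells were lost. The call of Irak4 (1.09) in type R marker cells was lost too. Of the settings tried on single genes, 4425 stayed on the same side of the threshold, called or not, 288 lost a call, 18 gained one and 6 turned direction.

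The replicate numbers share no stated origin, and deviations of same-numbered libraries correlated at -0.226 over all cells. With the replicate block the calls numbered 3173 over all cells, 734 in sinusoidal, 655 in arterial, 1932 in other and 218 in type R marker cells. Crossing the numbers gave 4762, 884 and 2758 calls over all, arterial and other cells.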

Other observations

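Some genes of protein synthesis and respiration were lower with PTH over all cells, where 12.5% of all genes tested were lower and 13.2% higher. Of 87 ribosomal genes 44 were lower and 1 higher (median log2 change -0.11) and 42 were not called, and of 84 nuclear genes of oxidative phosphorylation 32 were lower and 3 higher (median -0.09) and 49 were not called. Without untreated replicate 1 the lower counts were 24 and 16, and without untreated replicate 2 they were 29 and 21. Of 129 ribosomal pseudogenes 40 were higher and 7 lower over all cells. Rpl15-ps2 stood at 2.75 and 4.51 against 27.2 and 25.3 CPM (log2 change 2.85, SE 0.16), while Rpl15 stood at 696 and 776 against 433 and 447 CPM (-0.74, SE 0.05). How reads were shared between such copies, and whether that differed between the libraries, was not tested. Of 14 mitochondrial genes 5 were higher and 2 lower. Of 31 glycolysis and hypoxia genes 8 were higher and 11 lower, and 5 and 7 without either untreated library or PTH replicate 2. Of 17 heat shock genes 7 were higher and 4 lower. Their higher count was 2 without untreated replicate 1 and 3 without untreated replicate 2 or PTH replicate 2, and their lower count 2 without untreated replicate 1 or PTH replicate 1.

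Among vessel signalling lists over all cells, with the same shares over all genes, 9 of 19 VEGF genes were higher and 4 lower, 9 and 5 of 22 Notch genes, 2 and 2 of 10 angiopoietin and Tie genes, and 14 and 4 of 37 BMP and TGF-beta genes. The lower count of the BMP and TGF-beta list was near its share. The higher count of that list was 8 without either untreated library, and its lower count 2 without untreated replicate 1 or PTH replicate 2. The lower counts of the VEGF list were 1 or 2 without any 1 library, and those of the Notch list 1 or 2 without either untreated library or PTH replicate 2. Of 20 leukocyte adhesion genes 11 were higher and 6 lower. Cxcr4, the receptor of the chemokine Cxcl12, stood at 11.7 and 13.5 against 29.1 and 29.9 CPM over all cells, and Cd34, a sialomucin of capillaries and progenitors, at 391 and 373 against 750 and 809.8 CPM. Both PTH libraries lay above both untreated ones for these 2 genes.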
